A study of Mus musculus with 29 samples.

Results

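The 39 proteasome subunit genes of the mouse, taken as every symbol made of Psma, Psmb, Psmc or Psmd and a number, were followed through 29 RNA-seq libraries in which 23337 genes were counted. By role they are 14 constitutive subunits of the core particle, 17 subunits of the regulatory particle, 3 chaperones that help to build the regulatory particle, and 5 inducible or tissue-restricted core subunits. All 39 are protein-coding genes of GENCODE M21 on mm10. The choice used symbols and no measured value.

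The libraries fall into 8 groups, and every embryo was of the C57BL/6 strain at embryonic day 9.0. DIR (n = 4) and CTRL (n = 4) are sorted cells of the Dll1 lineage, marked by YFP, from explanted presomitic mesoderm kept in culture; DIR received LDN, an inhibitor of BMP receptors, and SAG, an agonist of the hedgehog transducer Smoothened, and CTRL received neither. SOMA, SOMB, SOMC and SOMD are sorted cells of the same lineage taken from the paraxial mesoderm of Dll1-YFP embryos without culture: SOMA (n = 3) from the presomitic mesoderm with the newest somite, SOMB (n = 4) from somites 2 to 5, SOMC (n = 4) from somites 6 to 9, and SOMD (n = 4) from somite 10 to a last somite that was 13, 14, 15 or 16 depending on the replicate. MUT (n = 3) and WT (n = 3) are trunk tissue whose RNA was extracted with no sorting step; the labels do not say which allele MUT carries, and the study's title names the lncRNA PEAT. They also do not say whether replicates came from separate embryos or cultures, so the p-values below measure the spread between these libraries, which may be technical.

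The proteasome is the large protease that degrades proteins tagged with ubiquitin. Its core particle is a barrel of alpha rings, which gate the entrance, and beta rings, which hold the cutting sites; Psmb5, Psmb6 and Psmb7 carry them in most cells, and immune signals replace these with Psmb8, Psmb9 and Psmb10. The regulatory particle caps the barrel: its base holds the Psmc ATPases that unfold substrates and the scaffolds and ubiquitin receptors Psmd1, Psmd2 and Psmd4, and its lid holds Psmd14, the enzyme that cuts ubiquitin off. In mammals the transcription factor Nfe2l1 raises many of these genes together when proteasome activity falls, through antioxidant response elements, and NF-Y binds CCAAT boxes.

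The motif CCGGAAG was in a larger share of the windows before regulatory than before core genes, a difference that was not tested. RefSeq promoter windows of 300 bases on GRCm38.p6 were at hand for 32 of the 39 genes, and 3 motifs were searched on both strands: TGACNNNGC (antioxidant response element), CCAAT, and CCGGAAG (bound by ETS factors); a window holding several was counted for each. CCGGAAG was in the window of 9 of 14 regulatory genes (64.3%), 1 of 11 core genes (9.09%) and 25 of 63 ribosomal protein genes (39.7%), against 12.9% of 17492 protein-coding genes with a window. CCAAT was in 6 of 11 core and 4 of 14 regulatory windows, against 42.3% of protein-coding genes, and TGACNNNGC was in 2 of 11 core and 2 of 14 regulatory windows, against 14.8%. The 8 stretches shown run from 120 bases before the start to 10 bases from it, 5′ to 3′ on the gene's own strand, with the motif in capitals (CTTCCGG is CCGGAAG on the other strand). The first 5 are regulatory genes with lower counts in cultured cells, 3 with and 2 without CCGGAAG, and the last 3 are core genes.
Psmd2: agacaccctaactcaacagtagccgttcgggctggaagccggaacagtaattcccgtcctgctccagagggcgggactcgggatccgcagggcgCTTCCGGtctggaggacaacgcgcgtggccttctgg
Psmd6: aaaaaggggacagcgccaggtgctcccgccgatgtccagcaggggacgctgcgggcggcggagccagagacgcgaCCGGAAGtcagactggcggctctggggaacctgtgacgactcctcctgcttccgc
Psmd13: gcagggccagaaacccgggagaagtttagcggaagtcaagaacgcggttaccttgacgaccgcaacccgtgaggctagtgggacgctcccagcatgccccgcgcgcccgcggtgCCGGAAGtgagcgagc
Psmc4: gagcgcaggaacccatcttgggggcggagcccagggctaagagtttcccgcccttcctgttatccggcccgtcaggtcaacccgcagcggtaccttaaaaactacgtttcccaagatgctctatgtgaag
Psmc5: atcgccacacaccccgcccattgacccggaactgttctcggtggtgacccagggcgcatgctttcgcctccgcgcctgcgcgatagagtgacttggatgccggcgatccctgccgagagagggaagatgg
Psma2: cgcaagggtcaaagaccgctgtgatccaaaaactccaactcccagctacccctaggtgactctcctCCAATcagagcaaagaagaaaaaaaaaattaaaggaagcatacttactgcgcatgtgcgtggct
Psmb5: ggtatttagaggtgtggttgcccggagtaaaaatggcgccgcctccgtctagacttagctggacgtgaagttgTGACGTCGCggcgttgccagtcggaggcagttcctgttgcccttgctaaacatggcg
Psmb6: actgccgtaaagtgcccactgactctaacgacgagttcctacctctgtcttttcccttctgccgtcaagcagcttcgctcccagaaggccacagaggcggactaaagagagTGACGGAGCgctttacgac
The positions on GRCm38.p6 are chr16:20651532-20651661 (plus strand) for Psmd2, chr14:14120936-14121065 (minus strand) for Psmd6, chr7:140882274-140882403 (plus strand) for Psmd13, chr7:28050083-28050212 (minus strand) for Psmc4, chr11:106256065-106256194 (plus strand) for Psmc5, chr13:14613122-14613251 (plus strand) for Psma2, chr14:54617986-54618115 (minus strand) for Psmb5, and chr11:70525237-70525366 (plus strand) for Psmb6. In these stretches TGACNNNGC lies 47 bases before the start of Psmb5 and 9 before that of Psmb6, CCAAT 54 before that of Psma2, and CCGGAAG 26, 45 and 6 before those of Psmd2, Psmd6 and Psmd13. A match of letters is a description and not a binding site.

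Counts over genes ran from 11541131 to 44363411 per library, and every level below is in CPM, counts scaled to library size, on 1 TMM scale for all 29 libraries. The share of alignments that were not unique was 38.8 to 40.6% in the 6 trunk libraries, 22.3 to 25.4% in DIR1, DIR2 and CTRL1, and 15.9 to 21.1% in the other 20. PEAT (AI646519) had 0, 0 and 0 counts in MUT, against 25, 18 and 61 in WT. In sorted cells 5 presomitic genes (T, Tbx6, Msgn1, Dll1, Hes7) summed to 388 to 587 CPM in SOMA and 10.5 to 16.9 CPM in SOMD, and 5 somite genes (Meox1, Meox2, Tcf15, Pax3, Pax1) to 471 to 584 CPM in SOMA and 382 to 682 CPM in SOMB, SOMC and SOMD, so the presomitic sum set SOMA apart from SOMD and the somite sum did not set SOMA apart. Erythroid markers summed to 957 to 2660 CPM in trunk tissue and at most 83.0 CPM elsewhere, with Hba-a1 at 0 in every library. Markers of macrophages and leukocytes, 5 of 6 genes of the list being in the files, summed to 0.703 to 9.58 CPM.

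Nearly all constitutive subunits were abundant, with levels per transcript length between those of Psmd11 and Psmb6. Averaged over the 8 groups, the 7 beta subunits ranged from 74.0 (Psmb5) to 267 CPM per kb (Psmb6), the 7 alpha subunits from 60.0 (Psma2) to 266 (Psma7), the 6 ATPases from 108 (Psmc2) to 182 (Psmc5), and the 8 lid subunits from 44.9 (Psmd11) to 139 (Psmd7). The 3 chaperones, which are not part of the finished particle, were lower, at 14.6 (Psmd9), 17.2 (Psmd10) and 20.3 CPM per kb (Psmd5). Length is that of 1 annotated transcript per gene. Neighbours in this order were closer than their spread over groups: Psmb6 ranged from 103 (WT) to 337 CPM per kb (SOMB) and Psma7 from 139 (WT) to 355 CPM per kb (DIR).

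**Figure D1:**
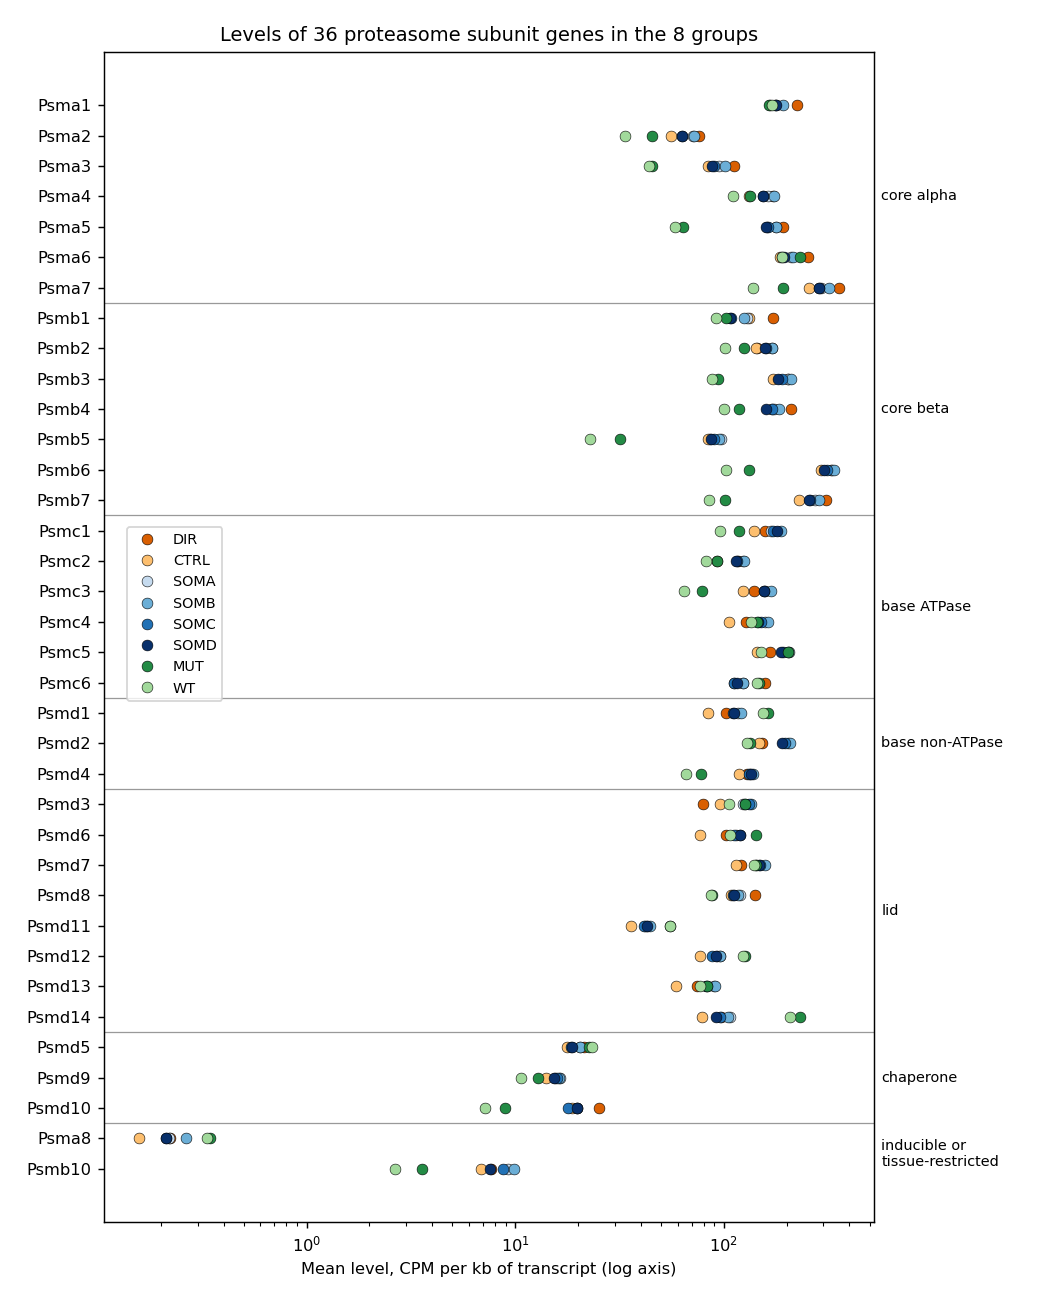
Mean level of 36 members in each of the 8 groups (points, CPM per kb on a log axis), arranged by role; Psmb8, Psmb9 and Psmb11 are left out because they have no counts in some groups. The constitutive subunits lie together, the chaperones lie below them, and Psmb10 and Psma8 are lowest; MUT and WT lie left of the sorted groups for most core genes and to the right for Psmd14.

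The highest levels per length were those of Psmb6, Psma7 and Psmb7. Psmb6, the caspase-like site of the beta ring, had 206, 168, 386 and 284 CPM in DIR, against 168, 297, 242 and 226 CPM in CTRL. In the somite series it had 236, 257 and 295 CPM in SOMA, 240, 317, 242 and 276 in SOMB, 232, 236, 290.5 and 237.9 in SOMC, and 238.1, 243, 261 and 226 in SOMD. It had 111, 98.9 and 106 CPM in MUT, against 89.2, 80.2 and 76.1 CPM in WT, so the trunk libraries lay below all sorted ones. Psma7, an alpha ring subunit, had 229, 259 and 310 CPM in SOMA, 254, 376, 246 and 297 in SOMB, 248, 247, 313 and 238.3 in SOMC, and 254, 257, 297 and 240.3 in SOMD. Psmb7, the trypsin-like site, had 305, 302 and 347 CPM in SOMA, 326, 409.8, 271 and 322 in SOMB, 291, 276, 339 and 294 in SOMC, and 297, 276, 314 and 297 in SOMD. The somite groups overlapped for both genes. Psmb7 had 121, 111 and 119.7 CPM in MUT, against 104, 98.2 and 94.2 CPM in WT, again below all sorted libraries. Psmb5, the chymotrypsin-like site, had 78.5, 86.0 and 97.8 CPM in SOMA, 74.9, 95.1, 79.3 and 90.9 in SOMB, 80.1, 73.6, 92.5 and 77.2 in SOMC, and 78.3, 76.5, 85.6 and 71.5 in SOMD.

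Of the inducible subunits, Psmb8 and Psmb9 were at or near 0 and Psmb10 was not. Psmb8, the immune counterpart of Psmb5, had 5 reads in the 29 libraries together: 1 in DIR3, 1 and 2 in SOMC1 and SOMC4, 1 in SOMD4, and none in the others. Psmb9, the counterpart of Psmb6, had 0, 0, 2 and 1 counts in DIR and 0, 1, 0 and 0 in CTRL, 0, 0 and 1 in SOMA, 0, 1, 0 and 0 in SOMB, 0, 2, 0 and 1 in SOMC, 1, 3, 0 and 1 in SOMD, and 0 counts in all 6 trunk libraries. Psmb10, the counterpart of Psmb7, was higher, with 10.3, 11.9 and 14.0 CPM in SOMA, 10.7, 14.4, 12.1 and 14.3 in SOMB, 10.7, 10.9, 12.9 and 11.1 in SOMC, and 9.68, 9.51, 11.8 and 8.91 in SOMD. In trunk tissue Psmb10 had 3.92, 5.68 and 4.43 CPM in MUT, against 3.48, 3.85 and 3.10 CPM in WT. Psmb11, which in adult mice belongs to thymic epithelium, had 1, 1, 0 and 1 counts in DIR, against 0, 6, 3 and 8 counts in CTRL, 4, 1 and 1 in SOMA, 0, 1, 0 and 1 in SOMB, 5, 2, 2 and 3 in SOMC, 2, 1, 1 and 7 in SOMD, and 0, 0 and 0 counts in MUT, against 0, 5 and 0 counts in WT. Psma8, known from testis, had 0.566, 0.662 and 0.524 CPM in MUT and 0.696, 0.511 and 0.485 CPM in WT, with 0.0579 to 0.761 CPM in the sorted libraries. At these depths Psmb8, Psmb9 and Psmb11 did not pass the filter on low counts in any fit, and Psma8 did not pass it in the fit of the somite series, which left 36 and 35 of the 39 genes tested. For Psmb8 and Psmb9 in trunk tissue the counts of 0 cover counting error only: over the 3 MUT libraries they allow up to 0.0256 CPM and over the 3 WT libraries up to 0.03 CPM (3 counts of the total).

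The ratio of core to regulatory levels differed between groups. The 14 core genes summed to 3360 ± 754 CPM in DIR, 2644 ± 340 in CTRL, 2984 ± 314 in SOMA, 3097 ± 488 in SOMB, 2794 ± 295 in SOMC, 2754 ± 205 in SOMD, 1858 ± 44.7 in MUT and 1586 ± 92.8 in WT (SD). The 17 regulatory genes summed to 3701 ± 430 CPM in DIR, 3185 ± 235 in CTRL, 4139 ± 380 in SOMA, 4287 ± 419 in SOMB, 3993 ± 309 in SOMC, 3997 ± 291 in SOMD, 4047 ± 81.0 in MUT and 3663 ± 122 in WT. The ratio of the core to the regulatory sum was 0.900 ± 0.0995 in DIR, 0.828 ± 0.0489 in CTRL, 0.720 ± 0.0100 in SOMA, 0.719 ± 0.0445 in SOMB, 0.699 ± 0.0223 in SOMC, 0.689 ± 0.0179 in SOMD, 0.459 ± 0.0107 in MUT and 0.433 ± 0.0114 in WT. Every trunk library, at 0.421 to 0.471, lay below every sorted library, at 0.663 to 1.02. The 4 CTRL libraries, at 0.778 to 0.888, lay above the 3 SOMA libraries, at 0.714 to 0.732. In sums over a bulk sample, fewer cells of a type and less RNA per cell cannot be told apart.

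**Figure D2:**
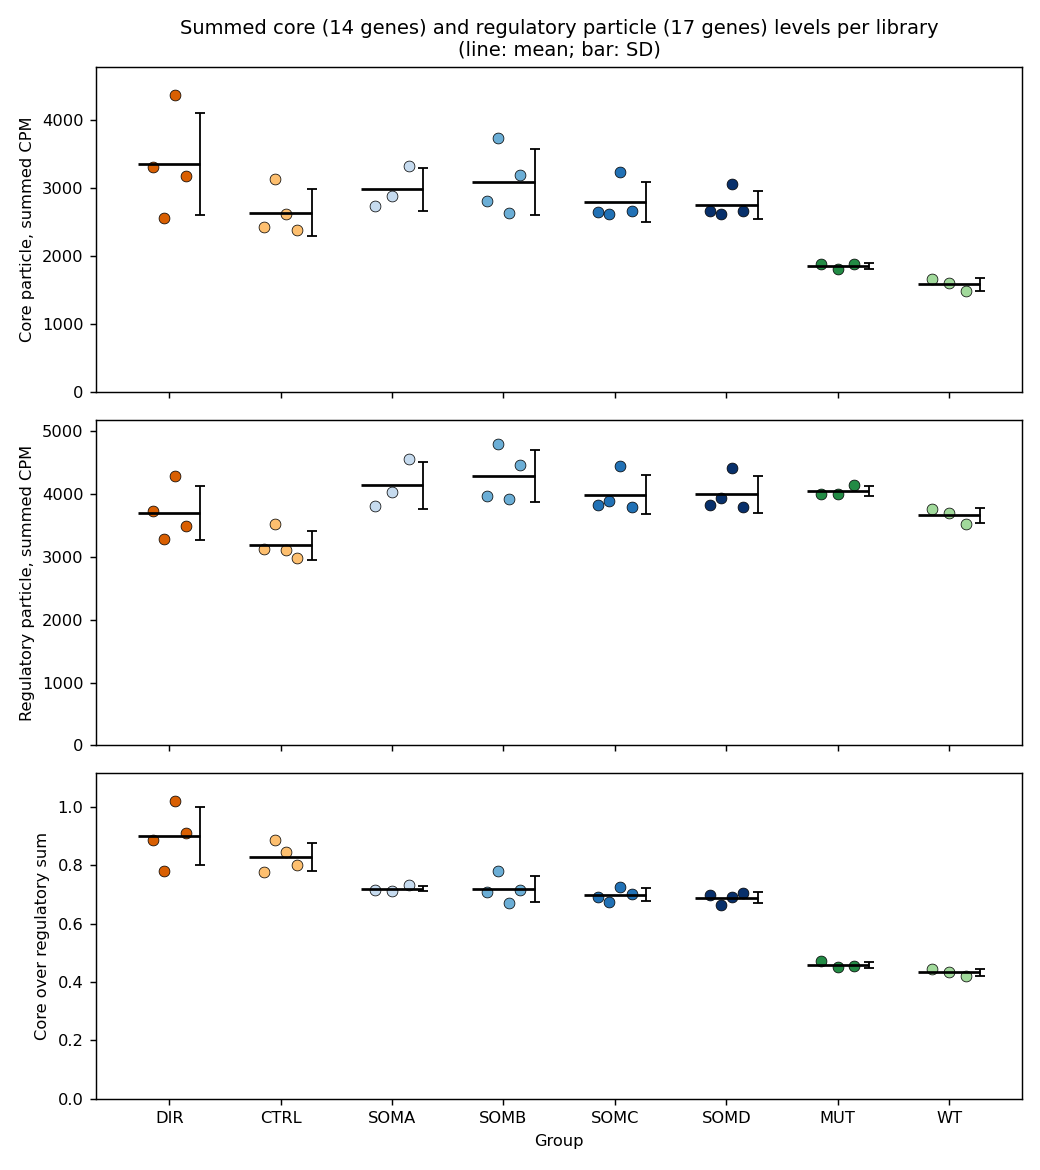
Summed CPM of the 14 core genes (top) and 17 regulatory genes (middle) and their ratio (bottom) in each library, by group; points are libraries, lines means and bars SD. The core sum is lowest in MUT and WT while the regulatory sum is not, and the ratio is highest in the cultured groups.

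In every group but MUT the library with the highest share of ribosomal protein reads also had the highest core sum, but the order did not hold for all libraries. DIR3, in which 14.5% of counts fell on the 85 ribosomal protein genes, had the highest core sum of its group (4377 CPM), as did CTRL2 with 11.7% (3131 CPM) and SOMB2 with 9.01% (3738 CPM). SOMA4, SOMC3, SOMD3 and WT1 were those of the other groups. MUT2, with the highest share in MUT (2.06%), had the lowest core sum there (1806 CPM). CTRL4, with 9.12%, had the lowest core and regulatory sums of the 23 sorted libraries (2390.0 and 2983 CPM), and DIR4, with 11.1%, had a lower core sum (3177 CPM) than DIR1 with 8.71% (3320.4 CPM). The part of this share in the differences below was not tested.

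Cultured cells without the inducing molecules were set against freshly sorted SOMA cells. Regulatory genes were lower in CTRL than in SOMA, and no core gene passed the threshold (edgeR quasi-likelihood test in the fit of all 29 libraries, Benjamini-Hochberg adjusted p under 0.05 over 15223 genes). Of 36 members tested 13 were lower and 0 higher, where 13.4% of all genes were lower and 16% higher. The 13 are 5 of the 6 ATPases (Psmc1 to Psmc5), the base scaffolds Psmd1 and Psmd2, and 6 of the 8 lid subunits (Psmd6, Psmd7, Psmd11, Psmd12, Psmd13, Psmd14); the groups did not overlap in 12 of them, the exception being Psmc3, and did not overlap in 33.8% of all genes. The median log2 fold change was -0.37 over the 17 regulatory and -0.18 over the 14 core genes, against 0.02 over all genes. DESeq2 also had 13 members lower and 0 higher, where it had 15.2% of all genes lower. With CTRL and SOMA alone in the fit, edgeR had 9 members lower, all regulatory, and 0 higher, where 1244 of 14137 genes were lower. Psmc1, Psmc3, Psmd11 and Psmd12 lost the call there. With each of the 7 libraries left out in turn, 7 of the 13 were lower every time (Psmc4, Psmc5, Psmd1, Psmd2, Psmd6, Psmd7 and Psmd13), and 6 lost the call at least once: Psmc2 and Psmd14 without SOMA4, Psmd12 in 3 of the 7, Psmc1 in 4, Psmc3 in 5 and Psmd11 in 6.

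Psmd2, a scaffold and ubiquitin receptor of the base on chr16:20651652-20663414, had 438, 452, 425 and 427 CPM in CTRL, against 571, 587 and 645 CPM in SOMA. The groups were far apart and each was tight. Its level averaged 435 ± 12.3 CPM in CTRL and 601 ± 38.8 CPM in SOMA (SD, n = 4 and 3), a log2 fold change of -0.46 ± 0.07 (SE, edgeR adjusted p = 1.62e-05). With CTRL and SOMA alone in the fit its edgeR adjusted p was 0.0119. A pseudogene with at least 95% identity covers 91.9% of its transcript, and its part in the count was not tested.

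Psmc4, an ATPase of the base, had 144, 170, 150 and 145 CPM in CTRL, against 201, 230 and 247 CPM in SOMA. Every CTRL library was below every SOMA library, with a log2 fold change of -0.57 ± 0.10 (edgeR adjusted p = 0.000104). Psmc5, the neighbouring ATPase of the ring, had 184, 211, 180 and 185 CPM in CTRL, against 249.6, 262 and 296 CPM in SOMA, a log2 fold change of -0.50 ± 0.09 (edgeR adjusted p = 0.000237). With CTRL and SOMA alone in the fit the edgeR adjusted p was 0.00728 for Psmc4 and 0.0104 for Psmc5. The largest differences by size among the 13 were those of the lid subunits Psmd13 and Psmd6, at -0.61 ± 0.15 and -0.57 ± 0.12. Psmd14 had 126, 140, 112 and 105 CPM in CTRL, against 149, 159 and 186 CPM in SOMA (log2 fold change -0.45 ± 0.13, edgeR adjusted p = 0.012).

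Among core genes 4 had an unadjusted p under 0.05, all lower in CTRL, where 2789 of 15223 genes had such a p and were lower. The log2 fold change was negative in 13 of 14 and ran from -0.34 for Psma2 to 0.04 for Psmb1. Psmb7 was nearest to the threshold, at 265 ± 30.0 CPM in CTRL and 318 ± 25.4 CPM in SOMA (log2 fold change -0.26 ± 0.12, edgeR adjusted p = 0.0975). Psmb5 had 33.0, 95.8, 89.5 and 82.3 CPM in CTRL, against 78.5, 86.0 and 97.8 CPM in SOMA, so the first CTRL library stood apart from the other 3. When each library was first freed of its dependence on transcript length and GC content, an alternative added after the data were seen, 8 core genes (Psma4 to Psma7, Psmb2, Psmb3, Psmb6 and Psmb7) were also called lower, 15 of 17 regulatory genes were, and 20.7% of all genes were. With the trend removed the medians were -0.43 for regulatory and -0.24 for core genes. Whether the 2 lists differ from each other was not tested.

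**Figure D3:**
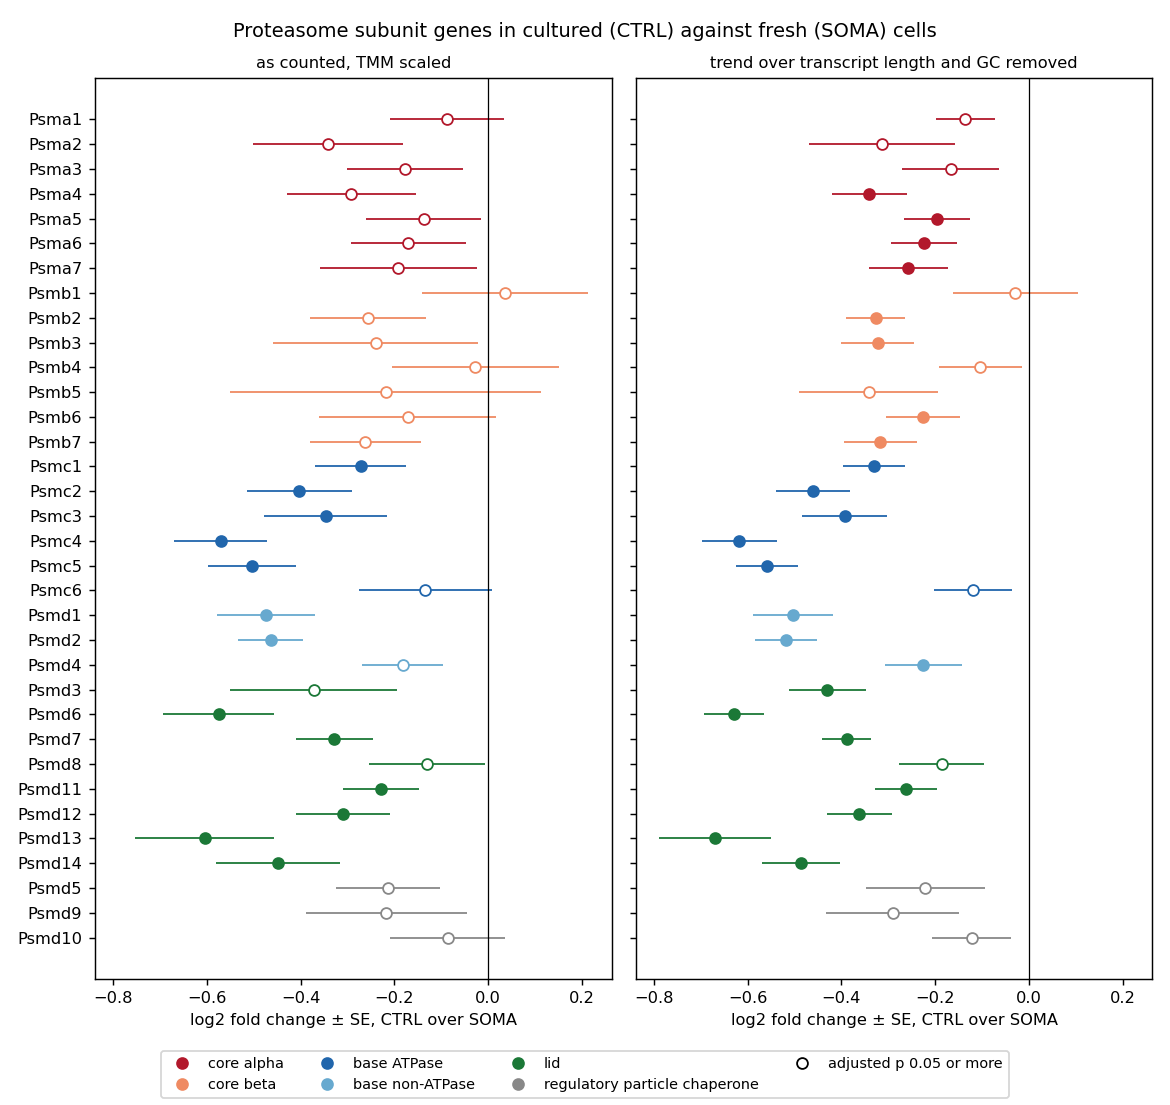
The log2 fold change of CTRL over SOMA with its SE for 34 members, as counted (left) and after removing the trend over transcript length and GC content (right); filled points have an adjusted p under 0.05. On the left the filled points are regulatory subunits, 13 in all, and on the right 8 core genes are filled too.

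Of 81 ribosomal protein genes 11 were higher in CTRL and 0 lower in the same comparison, a smaller share than the 16% of all genes that were higher, and their median was 0.33. Their sums and the proteasome sums come from the same libraries. Endothelial markers (all 5 with counts) summed to 187 to 251 CPM in CTRL and 45.6 to 173 CPM in SOMA, the 5 presomitic markers to 176 to 355 CPM in CTRL and 388 to 587 CPM in SOMA, and their part in the proteasome difference was not tested. Culture and any handling that went with it cannot be told apart. Without SOMA4, the SOMA library with the highest regulatory sum (4558 CPM), 7 members were lower, where 8.56% of all genes were.

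CCGGAAG was found in 7 of the 11 lower regulatory genes with a promoter window, and in 2 of the 3 with a window that were not called (Psmc6 and Psmd4). Of the 32 other proteasome and ubiquitin genes 11 were lower in CTRL and 2 higher, where 13.4% of all genes were lower and 16% higher. The lower ones include the activator Psme3 (226 ± 15.8 CPM in CTRL and 301 ± 11.3 in SOMA, log2 fold change -0.41 ± 0.07, edgeR adjusted p = 7.61e-05), the segregase Vcp (-0.38 ± 0.07) with its cofactor Nploc4 (-0.38 ± 0.08), the ubiquitin-activating enzyme Uba1 (-0.36 ± 0.08), the ubiquilins Ubqln1, Ubqln2 and Ubqln4, the shuttle Rad23b, and the core assembly factor Pomp (-0.42 ± 0.14, adjusted p = 0.0244). Higher were the activator Psme2 (0.52 ± 0.16, adjusted p = 0.0139) and AI314180, the gene of the proteasome-bound protein ECM29 (0.33 ± 0.12, adjusted p = 0.0409). With 1 library left out, 6 of these 13 were called every time (Psme3, Vcp, Nploc4, Uba1, Ubqln1 and Ubqln2). Pomp lost the call without CTRL1, CTRL3, CTRL4 or SOMA4 (edgeR adjusted p up to 0.218), Psme2 without CTRL2 or SOMA3 (up to 0.0592), and AI314180 without CTRL1, SOMA1, SOMA3 or SOMA4 (up to 0.157). AI314180 also lost it in 5 of 8 other settings, DESeq2 among them. Nfe2l1 itself had 195 ± 12.3 CPM in CTRL and 207 ± 6.02 CPM in SOMA (adjusted p = 0.473).

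DIR was set against CTRL to see what the inducing molecules change in cultured cells. No member passed the threshold in either direction, by edgeR or by DESeq2, where 0.303% of 14190 genes were higher and 0.444% lower by edgeR, and 1.42% higher and 2.08% lower by DESeq2. Of the 36 members, 34 had a positive log2 fold change, as had 48.3% of all genes. An unadjusted p under 0.05 was found for 13 members, all positive. Of all 14190 genes, 1007 had such a p and were positive, and 1170 had one and were negative. The median was 0.36 over core genes, 0.25 over regulatory genes and 0.18 over ribosomal protein genes, against -0.01 over all genes. Without DIR3 the core median was 0.20 and the regulatory median 0.17, and with the trend over length and GC content removed they were 0.16 and 0.15. In the fit of all 29 libraries, which shares 1 estimate of the spread, 10 of 36 members were called higher, where 5.26% of all genes were: Psma1, Psma3, Psma6, Psmb7, Psmc2, Psmc6, Psmd6, Psmd8, Psmd10 and Psmd11. The CTRL libraries are in both this comparison and the one with SOMA, so the 2 are not independent.

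Psmb7 had 398, 297, 410 and 333 CPM in DIR, against 284, 295, 250.5 and 230 CPM in CTRL. The groups did not overlap, with DIR2 just above CTRL2, and the log2 fold change was 0.42 ± 0.14 (edgeR adjusted p = 0.229). Psmd6, the lid subunit with the lowest p, had 146, 119, 169 and 134 CPM in DIR, against 101, 121, 104 and 97.5 CPM in CTRL (0.41 ± 0.13, edgeR adjusted p = 0.216). Psma7, an alpha subunit, had 315, 234, 443 and 305 CPM in DIR, against 202, 285, 235 and 210 CPM in CTRL, with overlap (0.46 ± 0.19, edgeR adjusted p = 0.307). The groups did not overlap in 5 members (Psma1, Psma6, Psmb7, Psmd5, Psmd11), where they did not in 9.27% of all genes. The 2 members without a positive value were Psmb2, at -0.00, and the lid subunit Psmd3 (-0.28 ± 0.26, edgeR adjusted p = 0.619). Psmd3, Psmd6 and the other genes outside the naming rule were named after their values were seen.

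Cultured libraries of the same group stood apart from each other for some subunits. Psmb5 had 36.3, 32.2, 139 and 101 CPM in DIR, against 33.0, 95.8, 89.5 and 82.3 CPM in CTRL: DIR1, DIR2 and CTRL1 were low and the other 5 were high. Psmd3 split in the same libraries, with 119, 130, 233 and 200.4 CPM in DIR, against 129, 242, 218 and 233 CPM in CTRL. So did Psmb10, with 4.61, 5.51, 17.9 and 12.2 CPM in DIR, against 4.40, 12.9, 9.08 and 9.57 CPM in CTRL. These are the 3 cultured libraries with 22.3 to 25.4% of alignments not unique; the other 5 had 15.9 to 19.5%. Of 35 members compared, 7 (Psmb2, Psmb3, Psmb5, Psmb6, Psmb10, Psmd3, Psmd9) were lower in all 3 than in any of the 5, 0 were higher, and 28 overlapped. Of all 14190 genes 20.8% were lower in this way and 17.7% higher, so the count of lower members was near that over all genes. The median GC content of the transcript was 55.8% in those 7 and 48.7% in the other 28. The part of GC content or of alignments in this split was not tested. Within DIR1, DIR2 and CTRL1 the median difference of DIR from CTRL on the log2 scale was 0.26 over core and 0.17 over regulatory genes, and within the other 5 libraries it was 0.46 and 0.31.

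**Figure D4:**
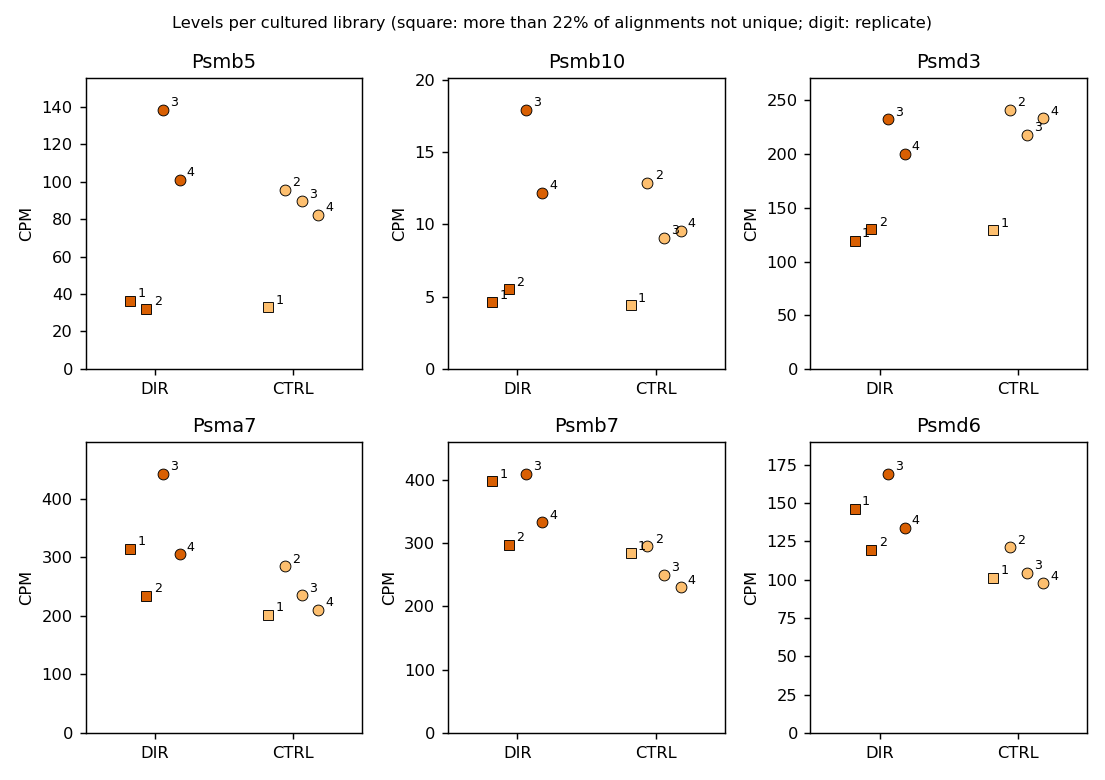
CPM of 6 members in each DIR and CTRL library; digits are replicate numbers and squares mark DIR1, DIR2 and CTRL1, with over 22% of alignments not unique. Psmb5, Psmb10 and Psmd3 (top) are low in the 3 squares whatever the group, while Psma7, Psmb7 and Psmd6 (bottom) do not follow the squares.

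Along the somite series none of the members tested passed the threshold in the fit that left pairing out. With the replicate number as a block, 1 member was called in SOMB against SOMA (Psmb1, lower) and 0 in SOMD against SOMC. In the block fit of SOMD against SOMC 1075 of 13243 genes were higher and 1100 lower. Without pairing, of 35 members tested 0 were higher and 0 lower in any of the steps from SOMA to SOMB, SOMB to SOMC and SOMC to SOMD or between the ends (SOMD against SOMA), and DESeq2 called 0. In any of the 4, 0 members had an unadjusted p under 0.05. Of 13790 genes 1327, 948, 856 and 2370 had such a p and were higher. Those with such a p that were lower numbered 1308, 707, 705 and 1967. In these 4 comparisons 4.13, 0.486, 1.26 and 10.8% of 13790 genes were higher and 4.55, 0.341, 1.07 and 8.92% were lower. As counts these are 569, 67, 174 and 1494 genes higher and 627, 47, 148 and 1230 lower. With the close libraries SOMC1 and SOMC4, and SOMD1 and SOMD4, summed, 474, 11, 20 and 1137 of 13711 genes were higher. In that setting 547, 4, 31 and 929 were lower. The groups overlapped in every member, where they did not overlap in 16, 6.1, 7.71 and 28.4% of all genes. The medians over core genes were 0.04, -0.14, -0.02 and -0.11, and those over regulatory genes 0.04, -0.11, 0.00 and -0.07. These medians moved with single libraries: in SOMC against SOMB they were -0.03 and -0.05 without SOMB2, in SOMB against SOMA -0.05 and -0.01 without SOMB2 and 0.14 and 0.13 without SOMA4, and in SOMD against SOMA -0.03 and 0.03 without SOMA4. With each library's no-feature share in the fit, those of SOMC against SOMB were -0.02 and -0.01. In SOMC against SOMB 0 of 35 members had a positive log2 fold change (-0.19 to -0.01), as had 2 of 81 ribosomal protein genes and 50.9% of all genes. These comparisons share libraries. SOMB2 had the highest core and regulatory sums of the 4 SOMB libraries and the lowest share of reads in no feature (7.57%); its part in this was not tested.

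Psmd14 shows the spread in the series: it had 149, 159 and 186 CPM in SOMA, 147, 190.5, 140.4 and 171 in SOMB, 136, 138, 179 and 137 in SOMC, and 126.5, 134, 173 and 134 in SOMD. The third replicate was high in SOMC and in SOMD. Psmd5, a chaperone of the base, had 81.7, 88.9 and 99.8 CPM in SOMA, 79.4, 106, 79.1 and 94.5 in SOMB, 74.5, 74.4, 95.3 and 79.6 in SOMC, and 79.9, 76.9, 91.7 and 78.8 in SOMD, with overlap throughout. The beta subunit Psmb1 had 189, 271, 184 and 231 CPM in SOMB, against 196, 219 and 264 CPM in SOMA. With the replicate number as a block, which paired the libraries of SOMB and SOMA, it was lower in SOMB (log2 fold change -0.16 ± 0.05, edgeR adjusted p = 0.0325), where 8.81% of all genes were. SOMB2 had no SOMA library of its number, so that call rests on replicates 1, 3 and 4. A fit with each library's no-feature share as a term had it lower in SOMD than in SOMA (-0.21 ± 0.06, edgeR adjusted p = 0.0227), where 12.2% of all genes were. Of the 32 other proteasome and ubiquitin genes, 1 was lower and 1 higher in SOMD than in SOMA. Of all genes 8.92% were lower and 10.8% higher. The interferon-induced activator Psme1 was lower in SOMD (37.0 ± 2.56 CPM) than in SOMA (48.4 ± 4.63 CPM), by -0.38 ± 0.09 on the log2 scale (edgeR adjusted p = 0.00841). Without SOMA3 its edgeR adjusted p was 0.0617, and the call was also lost in 2 of 10 other settings. The glycosidase Ngly1, which activates Nfe2l1, had 12.6, 7.59, 12.3 and 13.2 CPM in SOMD, against 7.94, 6.84 and 6.97 CPM in SOMA. The groups overlapped through SOMD2, and the log2 fold change was 0.67 ± 0.20 (edgeR adjusted p = 0.0294). That call was lost in 5 of the 7 fits with 1 library left out (without SOMA3, SOMA4, SOMD1, SOMD3 or SOMD4, adjusted p up to 0.102), and when the closest libraries, SOMD1 with SOMD4 and SOMC1 with SOMC4, were summed (0.084).

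MUT trunk tissue was set against WT trunk tissue, with the ribosomal protein genes as a contrast. Of 36 members 1 was higher, the ATPase Psmc5, and 0 were lower, where 0.331% of 14485 genes were higher and 0.0069% lower. Psmc5 (chr11:106256154-106263120) had 284, 256 and 266 CPM in MUT, against 204, 208 and 180 CPM in WT, without overlap. It averaged 268.5 ± 14.4 CPM in MUT and 197 ± 15.0 CPM in WT (SD, n = 3 each), a log2 fold change of 0.45 ± 0.07 (edgeR adjusted p = 0.0427). Without any 1 of MUT1, MUT2, MUT3, WT1 or WT2 its edgeR adjusted p was above the threshold, at 0.0892 to 0.146, and without WT3 it was 0.0267. Of all genes 0 to 3 were higher without any 1 of MUT1, MUT2, MUT3, WT1 or WT2, and 69 without WT3.

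The log2 fold change was positive in 33 of 36 (49.4% of all genes). The groups did not overlap in 22, where they did not in 22.2% of all genes. Of the 36 members 20 had an unadjusted p under 0.05, all positive, where 1261 of 14485 genes had one and were positive. The median was 0.26 over the 14 core genes and 0.13 over the 17 regulatory genes, against 0.00 over all genes. Psma7 had 185, 173 and 166 CPM in MUT, against 134, 135 and 111 CPM in WT (0.47 ± 0.08, edgeR adjusted p = 0.0537). Psmb5 had 28.6, 27.2 and 29.4 CPM in MUT, against 19.97, 22.2 and 19.2 CPM in WT (0.48 ± 0.10, adjusted p = 0.0667). Psmd14 had 361, 344 and 371 CPM in MUT, against 333, 329 and 293 CPM in WT (0.18 ± 0.06, adjusted p = 0.218), and Psmd5 had 99.8, 97.5 and 98.9 CPM in MUT, against 108, 96.9 and 102 CPM in WT (-0.05 ± 0.06, adjusted p = 0.784). DESeq2 called 12 members higher, 8 of them core genes, and 0 lower, where it called 4.98% higher and 2.49% lower of the 9988 genes to which it gave an adjusted p. Without WT3 edgeR called 4 higher (Psma2, Psma7, Psmc5 and Psmd6), where 0.466% of all genes were.

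Of 81 ribosomal protein genes tested 13 were higher in MUT and 0 lower, and the median was 0.44. An unadjusted p under 0.05 was found for 61, all higher, where 1261 of 14485 genes had one and were higher. DESeq2 called 54 higher. With 1 library left out edgeR called 0 without MUT2, WT1 or WT2, 1 without MUT1 or MUT3, and 21 without WT3. Over all genes it called 0 higher without MUT2, WT1 or WT2, 3 without MUT1, 1 without MUT3 and 69 without WT3. Rpl13a averaged 195 CPM in MUT and 115 CPM in WT (0.76 ± 0.07, edgeR adjusted p = 0.0161), and Rpl41 averaged 94.6 CPM in MUT and 41.8 CPM in WT (1.18 ± 0.12, adjusted p = 0.0161). Ribosomal protein genes took 1.87 to 2.06% of counts in MUT and 1.37 to 1.64% in WT. The transcripts of both kinds are short: the median length was 886 bases for ribosomal protein, 1162.5 for core and 1636 for regulatory genes. Among the genes tested in CTRL against SOMA it was 3053. With the trend over length and GC content removed, 0 genes of the 14485 were called in either direction, the medians were 0.15 over ribosomal protein, 0.08 over core and 0.11 over regulatory genes, and Psmc5 stood at 0.26 ± 0.06 (edgeR adjusted p = 0.178). After that step Psmb6 stood at 0.01 ± 0.07 and Psma2 at 0.56 ± 0.11, and 10 members had an unadjusted p under 0.05 in the higher and 2 in the lower direction. Erythroid markers (6 of 7 with counts, Hba-a1 at 0) summed to 1455 to 2660 CPM in MUT and 957 to 2245 CPM in WT, and neural markers to 171 to 246 CPM in MUT and 192 to 280 CPM in WT; their part in these differences was not tested.

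**Figure D5:**
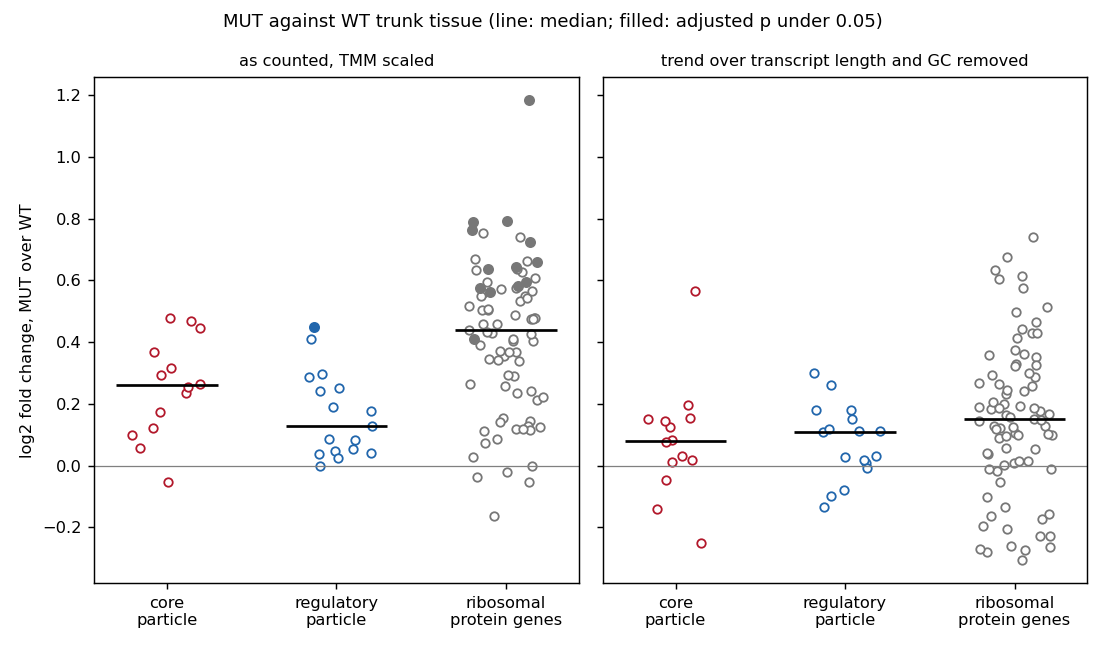
The log2 fold change of MUT over WT for core, regulatory and ribosomal protein genes, as counted (left) and after removing the trend over transcript length and GC content (right); points are genes, filled where the adjusted p is under 0.05, and lines are medians. On the left the medians are 0.26, 0.13 and 0.44, and on the right 0.08, 0.11 and 0.15 with no filled point.

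Core particle genes were lower in WT trunk tissue than in sorted somite cells, although Psma1 and Psma6 overlapped the SOM libraries. In MUT Psma6 averaged 241 CPM, above its SOM mean of 210 CPM, and the other core genes were below theirs. In WT all 14 core genes were below the mean of the 4 SOM groups, with a median log2 ratio of -1.05, while 12 of 17 regulatory genes were below and 5 above, with a median of -0.18; the ribosomal protein genes had a median of -2.73 and all genes -0.03. Psmb5 had the lowest ratio among constitutive genes, 0.247, with Psmb7 at 0.317 and Psmb6 at 0.320. Psmd14 was the reverse: its WT level was 2.07 times the SOM mean, and Psmd1 (1.34), Psmd12 (1.33), Psmd11 (1.30) and Psmc6 (1.22) were also higher in WT. These ratios are given with no test, because tissue, sorting and library preparation cannot be told apart here. Pseudogenes of at least 95% identity over at least 100 bases exist for 10 of the 39 genes and cover most of the transcript in Psmd2, Psmb5, Psmc1, Psmb3, Psma5 and Psma4; the median ratio of core genes was -1.17 for the 5 with such a copy and -0.77 for the 9 without. The part of these copies in the ratios was not tested.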

How the data were processed

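The authors deposited raw read counts per gene for each of the 29 libraries. Per the labels' protocols, RNA was extracted with Trizol and libraries were made with the TruSeq RNA kit and 11 rounds of PCR, a kit that does not mark strand. The submitters' processing notes name TopHat2 2.0.9, Cufflinks, HTSeq 0.6, DESeq2 1.10 and mm10. Each file lists 23337 genes and 5 summary lines; the summary lines stayed out of totals and tests, and reads in no feature were 6.54 to 12.8% per library.

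Counts were tested with edgeR 4.0.16 (R 4.3.3) by the quasi-likelihood F test, with TMM scaling, filterByExpr (minimum count 10, total 15) and Benjamini-Hochberg adjustment over all genes tested. DIR and CTRL, the 15 SOM libraries, and MUT and WT had a fit each; CTRL against SOMA came from a fit of all 29 libraries, where culture and experiment cannot be told apart. DESeq2 1.42.0 was an alternative. The edgeR test was tried on simulated counts for pairs of groups fitted alone. The fits of all 29 and of the 15 SOM libraries were not covered by it. The members and lists were chosen with earlier results of these data known. Values in every library are given for up to 3 called members per direction and comparison with the lowest p, for Psmb5, Psmb8, Psmb9, Psmb10, Psma8, Psmd14 and Psmd5, and for the 3 highest and 3 lowest members per length.

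Symbols were matched to GENCODE M21 (20953 of 23337, and 39 of 39 members) and to RefSeq promoter windows; near-identical pseudogenes were searched with blastn 2.17.0. No pair of libraries of a group agreed within sampling noise (dispersion of their counts over genes, limit 1.2). SOMC1 with SOMC4 (1.95) and SOMD1 with SOMD4 (1.91) were far closer than the other pairs (9.24 or more); each was kept as a library, and summing each pair was an alternative. Same-numbered libraries deviated together in SOMB and SOMA (correlations 0.462 to 0.516, 3 pairs) and in SOMD and SOMC (0.458 to 0.570, 4 pairs), taken as pairing by this correlation alone. In each other comparison at least 1 pair was at 0.1 or lower, and the numbers were not taken as pairing, although some pairs were high (-0.668 to 0.807 in DIR and CTRL, 0.0013 to 0.376 in MUT and WT). PCR reads are not independent molecules, so limits from counts cover counting error only.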

Additional observations from a re-analysis of the deposited data

Results flagged for a closer look

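In 9 of 73 groups of 4 libraries tested, 1 library stood apart from the other 3 by Dixon's 95% criterion. Most are the third replicate of SOMC and SOMD. The criterion is set to flag about 1 in 20 for independent libraries. Here the tests reuse the same libraries, and the sums hold genes that were also tested singly. SOMC1 with SOMC4 and SOMD1 with SOMD4 were also close to each other, so 9 of 73 cannot be set against that rate. In SOMC3 the core sum was 3236 CPM (2617 to 2668 CPM in the other 3 libraries), the regulatory sum 4453 CPM (3798 to 3889), Psmb6 290.5 CPM (232 to 237.9), Psma7 313 CPM (238.3 to 248) and Psmd14 179 CPM (136 to 138). In SOMD3 the core sum was 3059 CPM (2615 to 2672 CPM in the other 3) and Psmd14 was 173 CPM (126.5 to 134). In CTRL2, the CTRL library with the largest ribosomal share, Psmc5 was 211 CPM (180 to 185). In SOMC1 Psmb11 was 0.246 CPM (0.111 to 0.130), which rests on 5 counts.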

How the results depend on the processing

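Of the values for single genes, 730 kept their direction and side of the threshold, 114 lost the call, 19 gained it and 2 changed sign: Psmb5 in CTRL against SOMA (0.03918 without CTRL replicate 1, and with 1 library left out from -0.3496 to 0.03918, against -0.22 with all) and Psmd5 in MUT against WT with the trend over length and GC content removed (0.03647, against -0.05). Of the counts, 253 were within 1.5 times the reported one and 33 were not. Of 243 medians, 241 moved by less than 1 SD of the libraries within groups, yet 17 of these changed sign, all in the somite series, and 59 of the 243 moved by over 1.5 times with the same sign. In CTRL against SOMA, removing the trend gave 24 members lower, 8 of them core; leaving out 1 library gave 7 to 12 members and 7 to 12 regulatory genes lower. In MUT against WT, members higher numbered 0 with the trend removed, 0 in the fit of all 29 libraries, 3 without scaling, 5 without the filter on low counts, 12 by DESeq2 and 0 to 4 with 1 library left out (4 without WT3). Ribosomal protein genes higher numbered 0, 1, 25, 37 and 54 under the same settings in that order, and 0 to 21 with 1 library left out (21 without WT3). Over all genes those settings called 0, 17, 96, 175 and 497 higher of 14485, 15223, 14485, 18208 and 9988. With 1 library left out 0 to 69 of all genes were higher (69 without WT3). With the trend removed the core median was 0.07996 and the ribosomal median 0.15. In DIR against CTRL the fit of all 29 libraries called 10 members higher. With SOMC1 and SOMC4 and likewise SOMD1 and SOMD4 summed, 10 members were lower in CTRL against SOMA and 0 were called in the somite series. In SOMD against SOMA a term for each library's no-feature share called 1 member lower.

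With the replicate number as a block, SOMB against SOMA, whose libraries pair, had 1 member lower (Psmb1). SOMD against SOMC, whose libraries also pair, had 0 members called. Where the numbers do not pair, the replicate block gave 3 members lower, all 3 regulatory, in CTRL against SOMA, and 9 members and 50 ribosomal protein genes higher in MUT against WT. Over all genes it called 402 of 14137 lower in CTRL against SOMA and 272 of 14485 higher in MUT against WT. The cause of these changes was not tested. Depth limits Psmb8, Psmb9 and Psmb11, which were not tested.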
